A study of Mus musculus with 2 samples.

Results

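Chemokine ligands were described in cultured adipose stromal cells from 2 mouse depots. The members were all genes whose symbol is Ccl or Cxcl followed by a number, with or without a trailing letter, and Cx3cl1. The rule found 36 of 30614 genes, of which 34 were listed for inguinal white adipose tissue (iWAT) and all 36 for interscapular brown adipose tissue (iBAT). No measured level entered the rule. The members are given by depot, by marker-positive cells and by how few cells held each ligand.

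The study cultured stromal vascular fractions of wild-type C57BL/6N mice aged 8 to 12 weeks, with tissue pooled before digestion, to 80% confluency. The labels name 4 tagged treatments in each library, namely untreated, FGF1, FGF2 and FGF8, with FGF at 5.5 nM for 48 h. The tags were not resolved in the data used here, so each library was analysed as a pool of treated and untreated cells and no FGF comparison was made. For the single cells the study's methods name vehicle, FGF1 and FGF2, and they give a narrower age range, so the labels were followed here. Each depot was 1 library with 10000 cells loaded per treatment, so no test was possible and all intervals are 95% intervals for counting error only.

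Chemokines are small secreted proteins that bind G-protein-coupled receptors and steer leukocytes along concentration gradients. CC chemokines mainly act on monocytes, macrophages, eosinophils and lymphocytes, while CXC chemokines with an ELR motif draw neutrophils and the interferon-inducible ones draw activated T cells. In adipose tissue, fibroblastic stromal cells and macrophages are known sources, and Ccl2 is the ligand most often linked to monocyte entry into the tissue.

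After removal of cells with 200 or fewer genes, 7500 or more genes, or 30% or more mitochondrial UMIs, 29744 cells with 501759241 UMIs remained in iWAT and 28215 cells with 791392741 UMIs in iBAT. Median depth was 16204 UMIs per cell in iWAT and 27235 in iBAT, and 8 barcodes occurred in both libraries. Levels are UMIs of a gene per 1000000 UMIs of the kept cells (CPM). A UMI counts 1 captured molecule, so levels were not scaled by gene length. The libraries also differed in sex-linked transcripts, with Xist at 345 CPM in iWAT and 0.0505 in iBAT and Eif2s3y at 0.00199 and 40.4 CPM, so depot cannot be told apart from the sex of the pooled tissue or from other differences in how the 2 cultures were made.

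Cells were classed by at least 1 UMI of Pdgfra, Epcam, Ptprc, Sox10 or Pecam1, and a cell could fall in several classes. Where a class is called "only", its cells held no UMI of the other 4 markers. Pdgfra-positive cells made up 58.7% of iWAT and 91.9% of iBAT cells. No UMI of any of the 5 markers was found in 24.5% of iWAT and 5.21% of iBAT cells. Pdgfra itself measured 92.8 CPM in iWAT and 266 in iBAT, and iWAT cells were shallower. The part of missed marker UMIs in these shares was not tested, so they are not read as shares of stromal cells. Ptprc-only cells, 103 in iWAT and 131 in iBAT, carried the macrophage genes Lyz2 at 13153 and 13258 CPM and Adgre1 at 361 and 394 CPM, with no UMI of the T cell gene Cd3e. The other classes matched their names less evenly. Of 2887 Sox10-positive cells in iWAT, 83.8% were also Epcam-positive, and the 243 Sox10-only cells still held the epithelial keratins Krt18 at 146 CPM, Krt14 at 118 CPM and Krt5 at 60.5 CPM, against 4.90, 1.07 and 0.215 in Pdgfra-only cells. Neither set is therefore free of epithelial transcripts. The 111 Epcam-positive cells of iBAT held no UMI of Krt18 or Krt14, keratins of epithelial cells, and are called by their marker alone. Pecam1-only cells held the endothelial gene Cdh5 at 104 CPM in iWAT (91 cells) and 1210 CPM in iBAT (147 cells).

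The chemokine ligands took 883571 UMIs in iWAT (1761 CPM) and 1853358 in iBAT (2342 CPM), and their make-up differed. Cxcl14 held 49.8% of these UMIs in iWAT and 14.4% in iBAT. The CCR2 ligands held 35.4% in iWAT and 60.9% in iBAT, and Cxcl12 4.58% and 14.2%. Of the 36 members, 25 reached 1 CPM in at least 1 library. Among these 25, 6 were 2-fold or more higher in iBAT, namely Ccl2, Ccl9, Ccl11, Cx3cl1, Cxcl5 and Cxcl12, against a background of 6.53% of the 13991 genes that reached 1 CPM. In the other direction, 10 were 2-fold or more higher in iWAT, namely Ccl5, Ccl6, Ccl20, Ccl24, Cxcl1, Cxcl2, Cxcl9, Cxcl10, Cxcl13 and Cxcl14, against 7.78%. Of these 10, Ccl5, Ccl20, Ccl24, Cxcl2, Cxcl9 and Cxcl13 were under 1 CPM in iBAT and passed the floor through iWAT alone, while the 6 in iBAT passed in both libraries. With a floor of 5 CPM the counts were 4 in iWAT and 6 in iBAT, so no lean towards either depot was read from them. The median log2 ratio of iBAT over iWAT was -0.51 over the 25 members and 0.05 over all 13991 genes. This median includes the 6 members that passed the floor through iWAT alone, so no lean was read from it either. In Pdgfra-only cells it was 0.02 over the members and 0.06 over all genes tested there.

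**Figure D1:**
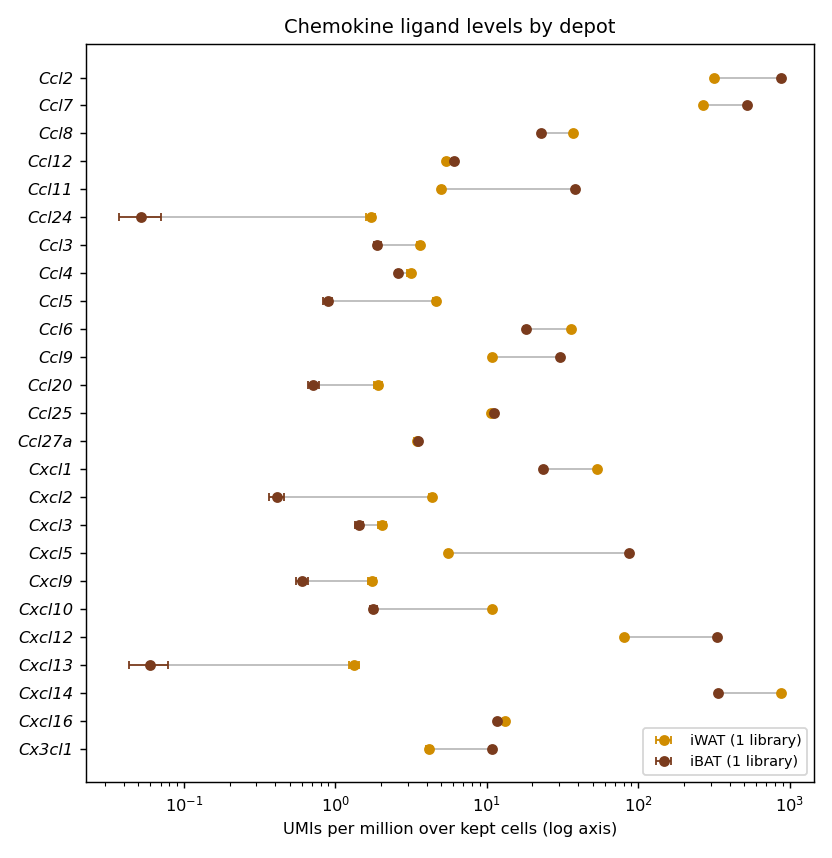
Level of each of the 25 chemokine ligands at 1 CPM or more, in CPM over kept cells on a log axis, with 1 point per library and 95% Poisson intervals that are mostly narrower than the points. Cxcl14, Ccl2, Ccl7 and Cxcl12 stand highest in both depots, and Cxcl5 and Ccl11 show wide gaps with iBAT higher, while Ccl24 and Cxcl13 show wide gaps with iWAT higher.

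The CCR2 ligands Ccl2, Ccl7, Ccl8 and Ccl12 draw monocytes and lie together on chromosome 11 in GRCm39, with Ccl2 at 81926397 to 81928279. Ccl2, also known as MCP-1, measured 314 CPM in iWAT (312 to 316) and 872 CPM in iBAT (870 to 874), a ratio of 2.78 (2.76 to 2.79). Ccl7, its neighbour and also a monocyte attractant, measured 268 and 524 CPM, 1.96-fold higher in iBAT (1.95 to 1.97). After each cell was thinned to 10000 UMIs, 45.3% of the cells of iWAT had a UMI of Ccl2 (interval 44.6 to 45.9) against 76.8% in iBAT (76.3 to 77.2), and unthinned the shares were 50.2% and 86.9%. Other classes also held both genes, at shares that varied by class. Ccl2 was in 50% and Ccl7 in 26.1% of the Sox10-only cells of iBAT at a median depth of 15005 UMIs, against 78.3% and 78.5% of Pdgfra-only cells at 27752. In iWAT Ccl2 was in 31.7% of Sox10-only and 44.3% of Pecam1-only cells against 50.8% of Pdgfra-only cells, and Ccl7 in 44.6% and 57.1% against 64.6%. Epcam-only cells of iWAT had lower shares, 25.4% for Ccl2 and 30.9% for Ccl7, at a median depth of 14709 UMIs. Pecam1-only cells of iBAT had Ccl2 in 76.2% and Ccl7 in 19.7%. Ptprc-only cells had Ccl2 in 84.4% (iWAT) and 95.4% (iBAT) and Ccl7 in 70.3% and 92.4%, above the Pdgfra-only cells. Thinning left out 5588 shallower iWAT cells and no iBAT cell. Ccl8 went the other way among the same gene cluster, with 36.8 CPM in iWAT and 22.7 in iBAT, 1.62-fold higher in iWAT (1.59 to 1.66). Ccl12 measured 5.39 and 6.10 CPM, a ratio of 1.13 (1.08 to 1.19). The cells that held 50% of its UMIs were mostly Ptprc-positive, 18 of 19 in iWAT and 33 of 35 in iBAT.

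Eotaxins act on CCR3 of eosinophils. Ccl11, the eotaxin encoded between Ccl7 and Ccl12 (chr11:81948618-81953781), measured 5.02 CPM in iWAT and 38.3 CPM in iBAT, 7.64-fold higher in iBAT (7.33 to 7.96). Its ratio exceeded those of the 4 CCR2 ligands around it. Ccl24, eotaxin-2, went the opposite way with 857 UMIs in iWAT (1.71 CPM) and 41 in iBAT (0.0518 CPM), 33.0-fold higher in iWAT (24.1 to 46.3). Of the 41 iBAT UMIs of Ccl24, none lay in Ptprc-only cells, while in iWAT those cells held 464 of 857. Ccl26 had 1 UMI in iWAT and 2 in iBAT.

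Ccl3, Ccl4 and Ccl5 are inflammatory ligands that attract macrophages and T cells. Ccl3, or MIP-1 alpha, measured 3.63 CPM in iWAT and 1.89 in iBAT, and Ccl4, or MIP-1 beta, 3.14 and 2.61 CPM. Ccl5, or RANTES, measured 4.62 and 0.888 CPM, 5.20-fold higher in iWAT (4.78 to 5.67). These 3 genes lie on chromosome 11 with Ccl6 and Ccl9, which bind CCR1. Ccl6 measured 36.1 CPM in iWAT and 18.0 in iBAT, a 2.01-fold difference (1.96 to 2.05) that fell to a log2 ratio of -0.99, under 2-fold, with doublets left out, while Ccl9 measured 10.7 and 30.6 CPM and was 2.85-fold higher in iBAT (2.77 to 2.94). These adjacent genes had opposite depot ratios.

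The CXCR2 ligands, which attract neutrophils, lie on chromosome 5 between 90907186, the start of Cxcl5, and 91053797, the end of Cxcl2. The 120 bases before the start of 4 of them are shown from the GRCm39 genome because they hold the same 11-base run, in capitals, which matches the NF-kB consensus, although the genes had opposite depot ratios. The windows are chr5:91038974-91039093 for Cxcl1, chr5:91051610-91051729 for Cxcl2, chr5:90933842-90933961 for Cxcl3 and chr5:90907066-90907185 for Cxcl5, all on the plus strand.

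Cxcl1: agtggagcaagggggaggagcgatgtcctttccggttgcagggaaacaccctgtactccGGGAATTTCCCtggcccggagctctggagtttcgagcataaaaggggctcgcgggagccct
Cxcl2: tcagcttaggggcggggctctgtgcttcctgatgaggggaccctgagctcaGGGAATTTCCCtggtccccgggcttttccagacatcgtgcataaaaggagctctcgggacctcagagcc
Cxcl3: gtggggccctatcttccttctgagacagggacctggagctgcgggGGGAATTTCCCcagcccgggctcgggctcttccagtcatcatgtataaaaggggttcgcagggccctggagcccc
Cxcl5: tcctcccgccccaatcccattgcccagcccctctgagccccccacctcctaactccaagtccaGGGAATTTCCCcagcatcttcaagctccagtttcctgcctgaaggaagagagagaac

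The first base of the run lay 61, 69, 75 and 57 bases before the gene start of Cxcl1, Cxcl2, Cxcl3 and Cxcl5. In 250-base windows before the start of 21770 genes, searched on both strands, 11 held this run (0.0505%), 4 of them these members. The run was picked after their values were seen. The NF-kB consensus as a whole matched 9 of 36 members and 7.62% of all windows. A match is a description of letters and not a binding site, and the Cxcl5 window overlaps an exon of the antisense gene Gm72413.

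Cxcl5, the ligand also named LIX, measured 2795 UMIs in iWAT (5.57 CPM) and 68831 in iBAT (87.0 CPM), a ratio of 15.6 (15.03 to 16.2). Among the 25 members this was the highest ratio in favour of iBAT. Thinned to 10000 UMIs, 2.41% of the cells of iWAT had a UMI of Cxcl5 (interval 2.22 to 2.61) against 29.98% in iBAT (29.5 to 30.5), and unthinned the shares were 3.01% and 44.0%. In Ptprc-only cells of iBAT the thinned share was 5.34%, at a median depth of 21000 UMIs, against 32.2% of Pdgfra-only cells at 27752. Cxcl1, or KC, went the other way with 53.8 and 23.5 CPM, 2.29-fold higher in iWAT (2.25 to 2.33). Cxcl2, or MIP-2, measured 4.36 and 0.409 CPM, 10.7-fold higher in iWAT (9.47 to 12.0), and Cxcl3 measured 2.04 and 1.44 CPM. Cxcl15, next to Cxcl3 on the chromosome, stayed under 1 CPM with 418 UMIs in iWAT and 3 in iBAT.

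Cxcl9 and Cxcl10 are interferon-inducible and attract T cells through CXCR3. Their windows of 250 bases, chr5:92475946-92476195 and chr5:92496749-92496998 on the minus strand, are shown because the cells richest in both also carried interferon-response genes. Capitals mark matches to the core of the interferon-stimulated response element (GAAANNGAA, either strand) and, in Cxcl10 only, 2 further runs that match the NF-kB consensus.

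Cxcl9: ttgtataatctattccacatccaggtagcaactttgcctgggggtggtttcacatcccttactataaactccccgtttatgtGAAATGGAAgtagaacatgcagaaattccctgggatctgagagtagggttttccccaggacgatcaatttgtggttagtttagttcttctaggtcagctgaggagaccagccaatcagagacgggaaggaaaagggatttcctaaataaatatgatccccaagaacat
Cxcl10: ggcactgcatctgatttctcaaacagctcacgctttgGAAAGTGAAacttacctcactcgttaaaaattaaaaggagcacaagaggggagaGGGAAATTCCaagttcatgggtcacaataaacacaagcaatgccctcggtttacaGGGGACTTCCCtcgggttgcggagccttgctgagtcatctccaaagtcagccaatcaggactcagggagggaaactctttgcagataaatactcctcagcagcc

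The response-element core matched 1 place in each window, starting 168 bases before the start of Cxcl9 and 213 before that of Cxcl10. The NF-kB matches of Cxcl10 started at 159, 104 and 103 bases, the last 2 overlapping in 1 capital run. The core was found in 7 of 36 members and in 7.55% of all 21770 windows. Cxcl10 measured 10.9 CPM in iWAT and 1.78 in iBAT, 6.12-fold higher in iWAT (5.77 to 6.49). Its exons overlap the antisense gene Art3 at 4.77 and 2.54 CPM, and whether counting used strand is not known here. Cxcl9 measured 1.75 and 0.599 CPM, 2.92-fold higher in iWAT (2.60 to 3.27). Cxcl11 had 8 UMIs in each library.

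Cxcl12 retains haematopoietic cells through CXCR4 and is made by stromal and endothelial cells. It measured 80.6 CPM in iWAT (79.8 to 81.4) and 333 CPM in iBAT (331 to 334), 4.13-fold higher in iBAT (4.09 to 4.17). Thinned, it was found in 37.0% of iWAT cells and 69.0% of iBAT cells, unthinned in 44.2% and 84.2%. In Ptprc-only cells the thinned share was 10.9% in iWAT and 15.3% in iBAT, against 40.1% and 72.00% of Pdgfra-only cells. In iWAT Sox10-only (41.7%), Pecam1-only (40%) and Epcam-only cells (32.1%) were near the Pdgfra-only share, so the share did not set Pdgfra-only cells apart there. Cxcl14 is a chemokine of fibroblasts and epithelia whose receptor use is unsettled. It measured 877 CPM in iWAT (874 to 880) and 338 CPM in iBAT (337 to 340), 2.59-fold higher in iWAT (2.58 to 2.61). Its thinned share was 68.8% of Ptprc-only and 64.8% of Pdgfra-only cells in iWAT, so no share of expressing cells was read for it. Among the members at 50 CPM or more in a library, Cxcl14 and Cxcl1 were 2-fold or more higher in iWAT, and Ccl2, Cxcl5 and Cxcl12 in iBAT.

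Cxcl16 and Cx3cl1 are made as membrane-bound proteins with a chemokine head. Cxcl16, a ligand of CXCR6, measured 13.1 CPM in iWAT and 11.7 in iBAT. Cx3cl1, or fractalkine, measured 4.14 and 10.8 CPM, 2.61-fold higher in iBAT (2.48 to 2.73). The antisense neighbours of Cxcl16 that overlap its exons were also present, Med11 at 17.3 and 23.0 CPM, and whether counting used strand is not given in the sources used here.

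The remaining members at 1 CPM or more are ligands known from mucosa, skin and lymphoid tissue. Ccl20, a ligand of CCR6, measured 1.91 CPM in iWAT and 0.717 in iBAT, 2.66-fold higher in iWAT (2.39 to 2.96). Cxcl13, a B cell attractant, counted 668 UMIs in iWAT against 47 for iBAT, 22.4-fold higher in iWAT (16.7 to 30.8). Ccl25 (10.7 and 11.2 CPM) and Ccl27a (3.46 and 3.51 CPM) were nearly level, but their counts are uncertain. Ccl25 overlaps the antisense gene Elavl1 at 114 and 131 CPM, and 80.2% of the 31-base words in the last 500 bases of Ccl27a occur in other genes. The 11 members under 1 CPM were Ccl1, Ccl17, Ccl19, Ccl21d, Ccl22, Ccl26, Ccl27b, Ccl28, Cxcl11, Cxcl15 and Cxcl17, with Cxcl15 the highest at 0.833 CPM in iWAT. Of these, Ccl19, Ccl21d and Ccl27b also share most of their last bases with copies.

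Because the libraries differed in cell make-up, the depot ratios were recomputed in Pdgfra-only cells, 15196 in iWAT and 24305 in iBAT. Of 20 members at 1 CPM or more there, 6 were 2-fold or more higher in iBAT, the same 6 genes as over all cells, against 6.2% of 13638 genes. In iWAT 7 were higher, namely Ccl5, Ccl20, Cxcl1, Cxcl2, Cxcl9, Cxcl10 and Cxcl14, against 6.36%. Of these 7, Ccl5, Ccl20, Cxcl2 and Cxcl9 were under 1 CPM in iBAT and passed the floor through iWAT alone. Cxcl5 measured 7.22 and 92.3 CPM in these cells, a ratio of 12.8 (12.2 to 13.4), and Ccl11 6.85 and 40.01 CPM, a ratio of 5.85 (5.58 to 6.12). Ccl9, the CCR1 ligand, was further apart than over all cells, with 2.52 and 24.7 CPM, a ratio of 9.82 (9.11 to 10.6). Cx3cl1 likewise measured 2.54 and 10.9 CPM, a ratio of 4.27 (3.96 to 4.62). Cxcl14 measured 1067 and 353 CPM. Ccl6 was nearly level in these cells, with 1.66 CPM in iWAT and 1.55 in iBAT, and its 2.01-fold difference over all cells was not seen there. The leukocyte gene Lyz2 was 1.87 CPM in iWAT and 12.3 CPM in iBAT Pdgfra-only cells. Its part in the Ccl9 ratio was not tested.

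**Figure D2:**
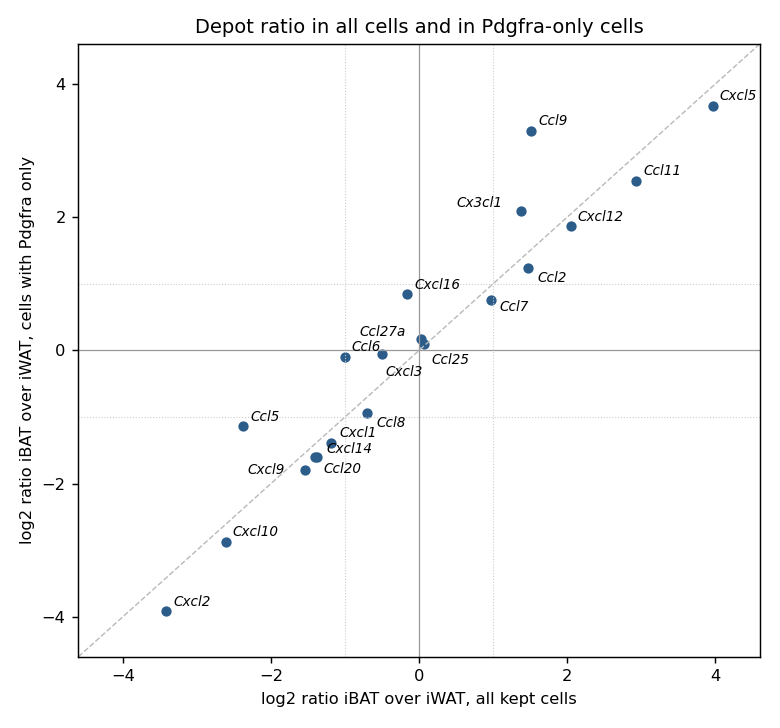
Log2 ratio of iBAT over iWAT for the 20 ligands at 1 CPM or more in Pdgfra-only cells of a library, over all kept cells (horizontal) and in cells with Pdgfra as the only marker (vertical). Dotted lines mark 2-fold, the dashed line equal ratios and each point 1 gene. Most ligands lie near the dashed line, while Ccl9, Cx3cl1, Cxcl16, Ccl5, Ccl6 and Cxcl3 lie above it.

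Ptprc-only cells carried the CC ligands of macrophages at levels far above those of Pdgfra-only cells. In Ptprc-only cells Ccl6 measured 9736 CPM in iWAT (9563 to 9911) and 2897 in iBAT (2836 to 2960), against 1.66 and 1.55 CPM in Pdgfra-only cells. Ccl12 measured 1437 and 903 CPM, Ccl3 793 and 285, Ccl4 798 and 397, and Ccl9 1071 and 1096. Ccl24 measured 373 CPM in iWAT (340 to 409), and no UMI was found in iBAT, where the upper bound was 1.26 CPM. The share of cells with a UMI set these apart too. After thinning, 87.5% (iWAT) and 87.0% (iBAT) of Ptprc-only cells had a UMI of Ccl6, against 0.732% and 0.543% of Pdgfra-only cells, which should lack it. Median depths were 13488 and 21000 UMIs in Ptprc-only and 19019 and 27752 in Pdgfra-only cells. Cxcl2 in Ptprc-only cells was 431 CPM in iWAT (395 to 469) and 17.4 in iBAT (13.0 to 22.9), and Cxcl3 260 and 2.39 CPM. Ccl2 measured 2114 and 3072 CPM in these cells and Ccl7 1000 and 1930 CPM, although the collagen gene Col1a1, which leukocytes should lack, was also present in Ptprc-only cells at 2644 and 947 CPM against 17570 and 6277 in Pdgfra-only cells. Its part in these levels was not tested.

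Counted at 4-fold or more over the other kept cells of the library, Ptprc-positive cells held 11 of 26 members in iWAT, against 7.34% of all genes, and 8 of 21 in iBAT, against 5.69%. Ccl3, Ccl4, Ccl6, Ccl9, Ccl12, Cxcl2 and Cxcl16 were among them in both libraries. Ccl2, Ccl17, Ccl24 and Cxcl3 passed in iWAT and Ccl5 in iBAT. Ptprc-positive cells held 86.7% of the Ccl6 UMIs of iWAT and 90.2% of those of iBAT, from 187 and 296 cells. The Ccl17 call rested on 10 UMIs. In the other cells Ccl3, Ccl4, Ccl12, Ccl17 and Ccl24 were under 1 CPM in iWAT, and Ccl3, Ccl4, Ccl5, Ccl12 and Cxcl2 in iBAT, so these passed the floor through the Ptprc class and their part of the counts is a description.

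Epcam-positive cells of iWAT, 6333 in number, held 5 of 26 members at 4-fold or more, against 5.12% of genes, and those of iBAT 0 of 19, against 0.47%. The 5 were Ccl5, Cx3cl1, Cxcl13, Cxcl15 and Cxcl16. With no other marker allowed 2 remained, Cxcl13 and Cxcl15, and both had passed the floor of 1 CPM through the Epcam class, with 0.0607 and 0.0364 CPM in the other cells. Under that rule the Epcam-positive cells with a further marker joined the comparison cells. The drop of Ccl5, Cx3cl1 and Cxcl16 was therefore not read as a lower level in Epcam-positive cells. Cxcl13 and Cxcl15, both near absent from other cells, kept 96.3% and 96.4% of their UMIs in Epcam-positive cells. In the 2430 Epcam-only cells Cxcl13 measured 17.9 CPM (16.4 to 19.5), against 0.0423 CPM in Pdgfra-only cells. Cxcl16 measured 39.5 CPM (37.3 to 41.8) against 6.36, Ccl5 12.1 against 1.53 and Cx3cl1 11.4 against 2.54. After thinning, only 2.55% of the Epcam-only cells had a UMI of Cxcl13, 2.62% of Cxcl15 and 1.98% of Ccl5. In Pdgfra-only cells these shares were 0.0586%, 0.022% and 0.469%. Cxcl16 was in 27.3% and Cx3cl1 in 10.1% of the Epcam-only cells. The levels of Cxcl13 and Ccl5 thus came from few cells, and no level typical of the class was read from them. Krt18 in the Epcam-only cells stood at 716 CPM, against 4.90 in Pdgfra-only cells.

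In Pdgfra-positive cells 0 of 26 members passed in iWAT, against 0.0218% of genes, and 1 of 23 in iBAT, Cxcl5, against 0.0642%. The comparison cells of iWAT included the 7300 cells with none of the 5 markers. Since hardly any gene passed there, the count in iWAT was not read as a lack of stromal ligands. Cxcl5 measured 91.4 CPM in the 25927 Pdgfra-positive cells of iBAT and 18.4 in the other cells. Of its UMIs 98.7% lay in the Pdgfra-positive cells, which made up 91.9% of the kept cells of that library. The count was 0 with 2 UMIs of the marker required (23784 cells), and 0 with no other marker allowed (24305 cells). Under both rules the Pdgfra-positive cells left out of the class joined the comparison cells. These counts therefore do not compare with Pdgfra-negative cells alone, and nothing about Cxcl5 was read from them. In Sox10-positive cells 4 of 26 members passed in iWAT, against 5.33%, namely Ccl5, Ccl9, Cx3cl1 and Cxcl16, in a class mostly shared with Epcam. In iBAT 1 of 19 passed, Cxcl10, against 2.65%. The 510 Sox10-only cells of iBAT carried Foxd3, a neural crest and Schwann lineage gene, at 224 CPM. Cxcl10 measured 21.4 CPM (18.4 to 24.8) over this class, against 1.39 in Pdgfra-only cells. After thinning, only 4.51% of these Sox10-only cells had a UMI of Cxcl10, 75 UMIs in all, against 0.28% of Pdgfra-only cells. In unthinned counts, 2 of the 7 iBAT cells richest in Cxcl10 were Sox10-positive. The level thus came from few cells, and no level typical of the class was read from it.

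In Pecam1-positive cells 5 of 25 members passed in iWAT, against 2.44%, and 1 of 21 in iBAT, Cxcl2, against 1.67%. Cxcl2 was at 0.302 CPM in the other iBAT cells and passed the floor through the Pecam1 class. The iWAT genes were the macrophage ligands Ccl3, Ccl4, Ccl6, Ccl12 and Ccl24, and 27 of the 364 cells were also Ptprc-positive. Most Pecam1-positive cells were also Pdgfra-positive, 214 of 364 in iWAT and 783 of 947 in iBAT, so these counts do not describe endothelial cells alone. In the 91 Pecam1-only cells of iWAT Ccl6 was 49.8 CPM. After thinning, 2.86% of the Pecam1-only cells of iWAT had a UMI of Ccl6, 9 UMIs in all. Pecam1-only cells of iBAT had a different set. There Cxcl12 measured 1366 CPM (1325 to 1408), against 343 in Pdgfra-only cells, while Cxcl14 measured 14.3 CPM against 353. Cx3cl1 measured 38.0 CPM (31.4 to 45.5) against 10.9, and Cxcl2 12.7 CPM (9.004 to 17.3) against 0.1998. After thinning, 27.2% of these Pecam1-only cells had a UMI of Cx3cl1, but only 4.08% had one of Cxcl2. Ccl2 at 1139 CPM was near the Pdgfra-only level of 878 CPM, and Ccl7 at 83.8 CPM was below the 530 CPM there.

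**Figure D3:**
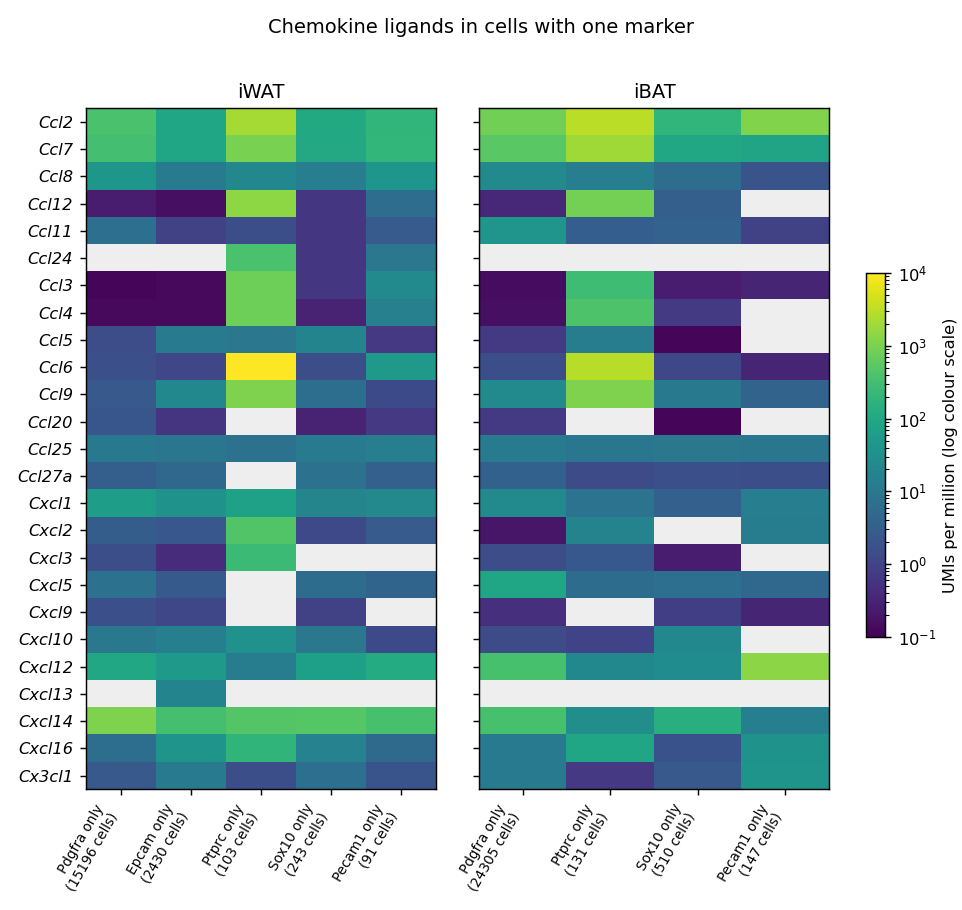
Level of the 25 ligands in cells with 1 of the 5 markers and no UMI of the others, in CPM on a log colour scale, with the number of cells under each column. Grey marks levels under 0.1 CPM, and the 7 Epcam-only cells of iBAT are not drawn. Ptprc-only cells are brightest for Ccl6, Ccl2, Ccl7, Ccl12, Ccl9, Ccl3 and Ccl4 in both depots, Pdgfra-only cells for Cxcl14 in both and for Cxcl5 in iBAT, and Pecam1-only cells of iBAT for Cxcl12.

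The ligands differed in how few cells held them. A ligand was called concentrated when the 1% of cells richest in it held 50% or more of its UMIs after thinning, among genes with at least 300 thinned UMIs. In iWAT 14 of 24 members were concentrated, against 9.28% of all genes, and in iBAT 6 of 19, against 12.2%. A gene with under 482 thinned UMIs in iWAT or 564 in iBAT meets this rule even at 1 UMI per cell, which fixed the calls of Ccl20, Ccl24 and Cxcl9 in iWAT and of Cxcl3 and Cxcl10 in iBAT. Without such genes, an alternative chosen after seeing the data, 11 of 21 members were concentrated in iWAT, against 3.11%, and 4 of 17 in iBAT, against 3.67%. The median share held by the richest 1% was 72.1% over members in iWAT and 28.1% in iBAT, and 12.5% and 12.7% over all genes. The 4 in iBAT, Ccl3, Ccl4, Ccl6 and Ccl12, were also among the 11 in iWAT. Of the other 7 in iWAT, Ccl9, Ccl11 and Cxcl5 were counted and not concentrated in iBAT, while Ccl5, Cxcl2, Cxcl3 and Cxcl10 had too few thinned UMIs there to be read.

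The 4 most abundant ligands lay above the all-gene median of 12.5% in iWAT and on both sides of that of 12.7% in iBAT. The richest 1% of cells held 20.2% of Ccl2 UMIs in iWAT and 8.88% in iBAT, 12.9% and 8.10% of Ccl7, 14.6% and 12.5% of Cxcl12, and 14.97% and 21.3% of Cxcl14. By variance over the mean of the thinned counts they ranked high among all counted genes. Their percentiles were 99.7 and 99.5 for Ccl2, 99.1 and 99.0 for Ccl7, 97.6 and 99.2 for Cxcl12, and 99.9 and 99.7 for Cxcl14. The part of their high level in both measures was not tested. For Cxcl5 and Ccl11 the richest 1% held 73.7% and 68.6% in iWAT, and 16.8% and 43.8% in iBAT, which is under the 50% rule but above the all-gene median. Fewer cells of iWAT had a UMI of either, 2.41% against 29.98% for Cxcl5 and 2.55% against 10.7% for Ccl11. The variance over the mean of the thinned counts was 5.46 in iWAT and 5.11 in iBAT for Cxcl5, and 5.003 and 10.3 for Ccl11. For Ccl11 that measure thus ranked the depots the other way from the share. The part of the lower iWAT level in the shares and in the variance over the mean was not tested. The cells that held most Cxcl5 and Ccl11 were largely Pdgfra-positive. Of the 102 cells that held 50% of the Cxcl5 UMIs of iWAT, 90 were Pdgfra-positive and 0 Ptprc-positive, and of the 134 cells for Ccl11, 111 and 0.

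**Figure D4:**
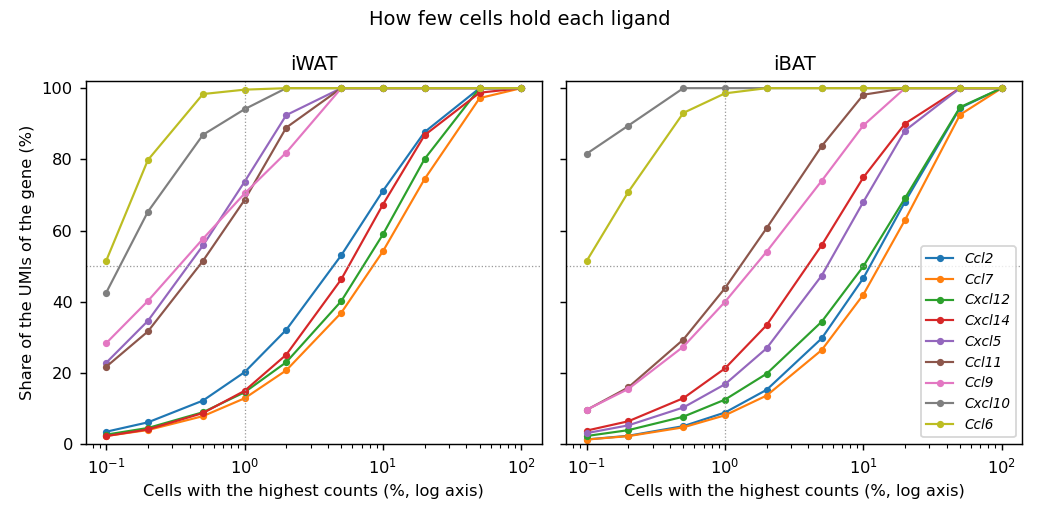
Cumulative share of the UMIs of 9 ligands (vertical, %) in the cells with the highest counts after thinning to 10000 UMIs (horizontal, % of cells on a log axis), by depot. Dotted lines mark 1% of cells and 50% of UMIs. Ccl6 passes 90% within 1% of cells in both depots and Cxcl10 in iWAT, with too few UMIs in iBAT to be read, Cxcl5, Ccl9 and Ccl11 cross 50% before 1% in iWAT but not in iBAT, and Ccl2, Ccl7, Cxcl12 and Cxcl14 reach 21.3% or less at 1% of cells in both.

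The cells that held 50% of a ligand's UMIs, in unthinned counts, fell into sets with different markers. For Ccl6 these were 29 cells in iWAT, 24 of them Ptprc-positive, and 24 cells in iBAT, 22 of them Ptprc-positive, and all had Lyz2. Ccl12 was held by 19 and 35 such cells, 18 and 33 of them Ptprc-positive. The 11 cells of Ccl24 in iWAT were all Ptprc-positive. The macrophage ligands were held by overlapping cells, although the richest 1% were 241 cells in iWAT, more than the 134 Ptprc-positive cells at that depth. The 1% of iWAT cells richest in Ccl6 held 96.8% of Ccl12, 96.99% of Ccl3, 95.7% of Ccl4 and 87.5% of Ccl24 UMIs, but 41.2% of Ccl9. In iBAT the cells richest in Ccl6 held 87.4% of Ccl12, 85.0% of Ccl3 and 85.2% of Ccl4, and 24.8% of Ccl9. Ccl9 differed from the other CC ligands of this group in the cells that held it. Of its 126 cells in iWAT, 60 were Ptprc-positive and 60 Epcam-positive, and of its 573 cells in iBAT, 447 were Pdgfra-positive and 172 Ptprc-positive.

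Cxcl10 was held by very few cells with interferon-response transcripts. In iWAT 31 cells held 50% of its UMIs, 17 of them Pdgfra-positive and 0 Ptprc-positive, and 30 had Ifit3, an interferon-induced gene, at 1637 CPM over these cells and 23.1 CPM over the others. In iBAT 7 cells did, all with Ifit3, at 2024 CPM against 9.84. The 10 richest cells of iBAT held 60.4% of its Cxcl10, and without the 10 richest cells of each library the log2 ratio of iBAT over iWAT went from -2.61 to -3.57. Of the 54 cells for Cxcl9 in iWAT, 38 had Ifit3, at 369 CPM against 24.4. The 1% of iWAT cells richest in Cxcl10 held 29.4% of the Cxcl9 UMIs. In iBAT 17 of the 22 cells for Cxcl9 had Fabp4, a fatty acid binding protein of adipocytes and capillary endothelium, at 11287 CPM over the 22 cells and 117 over the others, with a median of 2914 CPM per cell. Ifit3 was found in 11 of these 22 cells, at 495 CPM against 9.95.

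Ccl5 and Ccl20 were also held by few cells. In iWAT 17 cells held 50% of Ccl5, 13 Epcam-positive, 10 Sox10-positive and 0 Ptprc-positive. In iBAT 8 did, all Pdgfra-positive, and the richest cell alone held 15.4%. For Ccl20 these were 21 cells in iWAT, 17 Pdgfra-positive and 0 Epcam-positive, and 16 in iBAT, 15 Pdgfra-positive. Both ligands are known mainly from lymphocytes, macrophages and epithelia. The CXCR2 ligand cells differed from gene to gene. For Cxcl1, 1018 cells in iWAT and 920 in iBAT held 50%, 81.6% and 98.3% of them Pdgfra-positive, and Il6, a cytokine of activated stroma, stood at 148 CPM against 65.1 in iWAT and 52.2 against 25.9 in iBAT. For Cxcl2, 38 of 73 iWAT cells were Ptprc-positive and 38 Pdgfra-positive, and 9 and 10 of 19 in iBAT, with 7 Pecam1-positive. For Cxcl3, 14 of 25 iWAT cells were Ptprc-positive, while all 31 iBAT cells were Pdgfra-positive. Pdgfra-positive cells made up 58.7% of all kept iWAT cells and 91.9% of all kept iBAT cells. High Pdgfra shares in iBAT therefore lie near that of the whole library.

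**Figure D5:**
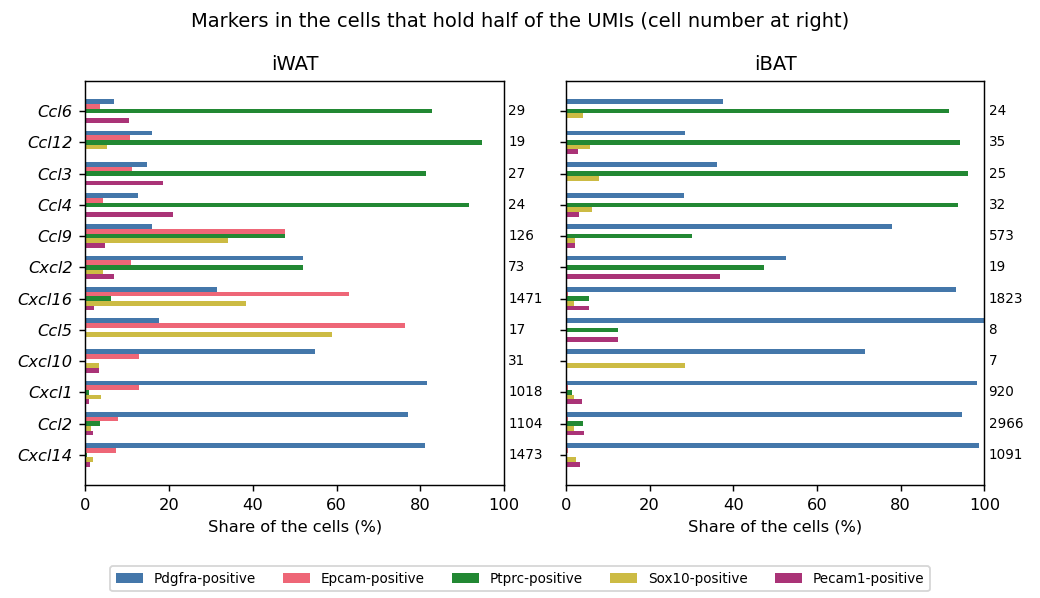
Share of cells (%) positive for each of the 5 markers among the cells that hold 50% of the UMIs of a ligand, with the number of such cells at the right of each row. Cells may be positive for several markers. Green bars for Ptprc are the longest of each gene's bars for Ccl6, Ccl12, Ccl3 and Ccl4 in both depots, as blue bars for Pdgfra are for Cxcl1, Ccl2 and Cxcl14, and Ccl5 and Cxcl16 show Epcam in iWAT and Pdgfra in iBAT, while Ccl9 shows Epcam and Ptprc alike in iWAT.

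Within Pdgfra-positive cells, 15671 in iWAT and 25927 in iBAT at 10000 UMIs, genes that varied with the 4 most abundant ligands were ranked by the lower Pearson r of the 2 libraries on log thinned counts, among 8164 genes. Cells of 1 library share depth and treatment mix, so r is a description. For Ccl2 the closest gene was Ccl7, with r of 0.65 in iWAT and 0.67 in iBAT, followed by Il1rl1, the interleukin-33 receptor, with 0.32 and 0.38. Ccl7 had Ccl2 and then Il1rl1, at 0.26 and 0.24. Cxcl12 went with a different set, led by Cpxm1 at 0.24 and 0.21 and including Il1r1, the interleukin-1 receptor, and Sfrp1, a secreted Wnt modulator, at 0.20 and 0.40. Cxcl14 was led by Sfrp1 at 0.26 and 0.24 and followed by Sod3, a secreted superoxide dismutase. The levels of Ccl2 and Cxcl12 had r near 0 in iWAT and -0.08 in iBAT, and those of Cxcl12 and Cxcl14 -0.04 and 0.11.

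Chemokine receptors were scarce in these cultures. Ccr1 measured 1.73 CPM in iWAT and 2.37 in iBAT, and Cx3cr1 3.42 and 2.05, each within 2-fold. Ccr1, the receptor of Ccl6 and Ccl9, stood at 261 CPM in Ptprc-only cells of iWAT. Ccr2, the receptor of Ccl2 on monocytes, counted 20 UMIs in iWAT against 22 for iBAT, and Cxcr4, that of Cxcl12, 273 and 788. Of 5 scavenging receptors 2 reached 1 CPM. Ackr3, which takes up Cxcl12, measured 17.9 and 15.3 CPM, and Ccrl2, which binds chemerin, 1.77 and 0.695.

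Of the listed genes of signalling upstream of the ligands, some differed and others did not pass 2-fold. Il1r1, the interleukin-1 receptor, measured 31.3 and 153 CPM, 4.90-fold higher in iBAT (4.82 to 4.98). Irf7, at 18.9 and 2.07 CPM, Irf9 and Stat2, all of interferon signalling, and Tnfaip3, an inhibitor of NF-kB, at 15.2 and 3.12 CPM, were 2-fold or more higher in iWAT. The NF-kB subunits Nfkb1 at 44.0 and 46.4 CPM, Nfkb2, Rela and Relb were within 2-fold, as were Nfkbia, Tnfrsf1a, Tlr4 and Myd88. Of interferon signalling, Irf1 at 16.4 and 15.8 CPM and the receptor genes Ifnar1, Ifnar2 and Ifngr1 were within 2-fold too. No test was made for these genes.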

How the data were processed

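Single-cell whole-transcriptome libraries (BD Rhapsody) of iWAT and iBAT cultures were used. The deposited values are raw UMI counts per gene and cell. The authors aligned reads on a commercial cloud pipeline, and the submitters' processing notes name mm39 and Seurat 5.0.0. Aligner, UMI correction, strand use and the handling of multi-mapped reads are not given in the sources used here. No column was left unused for want of a sample (0 unlisted).

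In Python 3.11.15 with numpy 2.4.6 and scipy 1.17.1, counts were summed over kept cells (over 200 and under 7500 genes, under 30% mitochondrial UMIs) and scaled to CPM. Intervals were exact Poisson for levels, conditional binomial for ratios and Clopper-Pearson for shares of cells, at 95%, and cover counting error only. With 1 library per depot no p-value was computed. Scrublet in scanpy 1.11.5 marked 644 iWAT and 713 iBAT cells as doublets, which stayed in the main values. Members at 1 CPM or more in a library were named. For concentration, cells were thinned to 10000 UMIs with a fixed seed. Members, lists and cell classes were chosen with earlier results of these data known. On simulated counts, 200 of 200 genes changed 4-fold between depots were recovered among 13580, with 0 false calls, and 50 of 50 concentrated genes were recovered among 100. The simulation held counting error only, with no variation between libraries. Its changed genes lay above the 1 CPM floor, and its concentrated genes lay in 0.5% of cells, far past the 50% rule. It therefore checks the arithmetic and cannot show how reliable the calls from 1 library per depot are. Alternatives covered the level floor, scaling, cell filters, doublets, marker rules and thinning. Promoter windows, gene positions and overlaps come from GRCm39 (GENCODE M39). Some genes of the fixed lists are not reported here.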

Additional observations from a re-analysis of the deposited data

Results flagged for a closer look

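Flagged were 2 cases in which a ligand stood on opposite sides of its comparison cells in the depots. No full count of such ligands is given. These differences were not tested, since each depot is 1 library. Ccl5 in Sox10-positive cells measured 31.1 CPM against 2.38 in the other cells of iWAT, and 0.395 against 0.905 in iBAT, a log2 difference of -4.90 between the depots. The iWAT class was mostly Epcam-positive. In Sox10-only cells Ccl5 measured 18.2 CPM (13.8 to 23.5) in iWAT, from 58 UMIs in 243 cells, and 0.120 in iBAT, from 1 UMI. After thinning, the 139 of these iWAT cells with at least 10000 UMIs held 0 UMIs of Ccl5, so the level rests on shallower cells or on UMIs lost in thinning, and no level of the class as a whole was read from it. The iWAT Sox10-only cells also held Krt18 at 146 CPM, Krt14 at 118 CPM and Krt5 at 60.5 CPM, against 4.90, 1.07 and 0.215 in Pdgfra-only cells, and the part of epithelial transcripts in the Ccl5 value was not tested. Ccl6 in Pecam1-positive cells measured 264 CPM against 33.1 in iWAT and 7.31 against 18.4 in iBAT, a log2 difference of -4.33. Of the iWAT cells 27 of 364 were Ptprc-positive, and of the iBAT cells 6 of 947. Their part in the difference was not tested.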

How the results depend on the processing

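Of the recomputed counts of members, 59 stayed within 1.5 times the main count and 19 did not. At 4-fold the depot counts were 3 (iBAT) and 5 (iWAT), and with a floor of 5 CPM 4 were higher in iWAT. Among marker classes at 2-fold, the counts were 2 for Pdgfra and 10 for Pecam1 in iWAT and 6 for Pdgfra in iBAT. With no other marker allowed they were 2 for Epcam, 1 for Sox10 and 3 for Pecam1 in iWAT, and 0 for Pdgfra and 3 for Pecam1 in iBAT. Against Pdgfra-only cells they were 9 for Epcam in iWAT and 5 for Sox10 and 4 for Pecam1 in iBAT. With 2 UMIs of the marker they were 0 for Pdgfra and 2 for Pecam1 in iBAT. Under this rule, and with no other marker allowed, marker-positive cells left out of the class joined the comparison cells. Concentrated members numbered 6 in Pdgfra-positive cells of iWAT, and in iBAT 10 without thinning and 15 with the richest 5% of cells. The causes of these shifts were not tested.

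Of the single-ligand ratios 93 stayed, 54 moved and 1, past 2-fold in the main values, reversed. The log2 ratio of Ccl6 went from -1.01 to 0.20 in Pdgfra-positive cells. Ccl4 (-0.27 to 0.67) and Cxcl16 (-0.16 to 0.61), within 2-fold in the main values, also changed sign there, and Ccl27a (0.02 to -0.03) under the median of ratios. In Pdgfra-positive cells Ccl5 went from -2.38 to -1.18, Ccl9 from 1.51 to 2.64, Ccl24 from -5.04 to -3.07 and Cxcl13 from -4.49 to -3.09. Without the 10 richest cells of each library, an alternative chosen after seeing the data, Cxcl10 went from -2.61 to -3.57. Scaling by the median of ratios shifted all log2 ratios by 0.05. No paired analysis was possible because each depot is 1 library. Depth limits the members under 1 CPM, and small classes rest on few cells.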

Other observations

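3 chemokines outside the symbol rule were also measured. Pf4, platelet factor, measured 9.58 CPM in iWAT and 2.04 in iBAT, 4.69-fold higher in iWAT, and stood at 2689 CPM in Ptprc-only cells of iWAT against 0.507 in Pdgfra-only cells, and at 263 against 0.213 in iBAT. Ppbp, the neutrophil-activating platelet protein, measured 5.29 and 1.02 CPM, 5.18-fold higher in iWAT, and stood at 902 CPM in Ptprc-only cells of iWAT against 1.61 in Pdgfra-only cells, but at 0.683 against 1.03 in iBAT. Xcl1, a ligand of dendritic cells, had 63 UMIs in iWAT and 4 in iBAT, none of them in Ptprc-only cells. These 3 genes were on a list chosen with earlier results known.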
